A study of Mus musculus with 4 samples.

Results

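Replication-dependent histone genes encode the H1, H2A, H2B, H3 and H4 proteins that package newly copied DNA. The set examined here was every protein-coding gene of the GENCODE M1 annotation of mouse build mm9 whose symbol begins with Hist1h, Hist2h, Hist3h or Hist4h, which gave 67 of 22380 protein-coding genes. They comprised 6 H1, 19 H2A, 18 H2B, 11 H3 and 13 H4 genes. Chromosome 13 carried 55 of them (Hist1), chromosome 3 carried 9 (Hist2), chromosome 11 carried 2 (Hist3) and chromosome 6 carried 1 (Hist4). Another 3 genes with such names, Hist2h3c2, Hist3h2bb-ps and Hist1h2aj, are annotated as pseudogenes and were left out.

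Open chromatin was mapped by ATAC-seq, in which a transposase inserts sequencing adaptors into accessible DNA, in primary myoblasts of C57BL/6 mice that were WT or Tet2 KO. The Tet2 KO mice lack exon 3 of Tet2, removed by homologous recombination, and Tet2 is an enzyme that oxidises methylated cytosine. In both genotypes satellite cells were sorted from hindlimb muscle and cultured for 3 days until they were myoblasts, and each library was made from 5000 cells. There were 2 WT and 2 Tet2 KO samples, but what was analysed is 1 list of peaks per genotype, so no difference between genotypes has a replicate check and none was tested.

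These genes are known to be transcribed mostly while DNA is being copied, and their mRNAs end in a conserved stem-loop instead of a poly(A) tail. The genes are short, lack introns in their classical form and lie in clusters where H2A and H2B genes often stand head to head around a shared promoter. Their promoters are known for TATA and CCAAT boxes, for an octamer that binds POU factors in H2B promoters, and for an AAACACA element in H1 promoters.

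The sequences at the centre of the comparison were the 3 histone sites with a peak in both lists, all of them promoters shared by an H2A and an H2B gene. They are given on the plus strand of mm9, with capitals for CCAAT boxes (CCAAT or ATTGG), the TATA box (TATAAA or TTTATA) and the octamer (ATTTGCAT or ATGCAAAT). The first is the Tet2 KO peak at chr13:22127527-22127694 between Hist1h2ah and Hist1h2bk, the second is the Tet2 KO peak at chr13:23775978-23776083 between Hist1h2ac and Hist1h2bc, and the third is the WT peak at chr3:96024739-96025018 at Hist2h2ac and Hist2h2be, in which the Tet2 KO peak spans bases 45 to 206.
Hist1h2ah/Hist1h2bk: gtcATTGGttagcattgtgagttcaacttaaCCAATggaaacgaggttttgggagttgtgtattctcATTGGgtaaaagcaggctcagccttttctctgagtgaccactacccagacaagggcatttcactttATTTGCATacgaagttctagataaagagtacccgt
Hist1h2ac/Hist1h2bc: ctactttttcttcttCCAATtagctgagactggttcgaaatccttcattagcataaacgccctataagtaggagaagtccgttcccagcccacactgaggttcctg
Hist2h2ac/Hist2h2be: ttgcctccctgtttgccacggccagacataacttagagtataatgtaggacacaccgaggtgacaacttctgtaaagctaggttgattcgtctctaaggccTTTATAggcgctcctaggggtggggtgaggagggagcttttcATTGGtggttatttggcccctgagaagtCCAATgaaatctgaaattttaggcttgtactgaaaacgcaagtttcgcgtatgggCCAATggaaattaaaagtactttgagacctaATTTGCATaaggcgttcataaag

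A pair of divergent promoters with a WT peak alone is shown beside them for contrast. Hist1h2bh/Hist1h3f, at chr13:23635257-23635478, had the strongest WT peak without a Tet2 KO peak, and Hist1h2an/Hist1h2bp, at chr13:21879129-21879228, had the weakest WT peak at a divergent promoter.
Hist1h2bh/Hist1h3f: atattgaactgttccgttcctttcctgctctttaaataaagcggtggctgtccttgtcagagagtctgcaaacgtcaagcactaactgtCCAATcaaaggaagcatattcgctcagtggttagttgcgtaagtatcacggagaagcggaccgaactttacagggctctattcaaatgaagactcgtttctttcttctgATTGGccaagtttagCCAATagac
Hist1h2an/Hist1h2bp: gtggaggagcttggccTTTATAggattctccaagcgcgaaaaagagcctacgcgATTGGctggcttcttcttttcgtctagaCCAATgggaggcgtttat

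CCAAT boxes stood in all 5 of these stretches. Of the 3 Tet2 KO peaks, only that of Hist1h2ah/Hist1h2bk held the octamer. At Hist2h2ac/Hist2h2be it began at base 258 of the WT peak, outside the Tet2 KO peak. At Hist1h2ac/Hist1h2bc the octamer ended 20 bp before the first base of the Tet2 KO peak and lay within the WT peak. Neither WT-only stretch shown held it, but the WT-only peaks of Hist1h2ae/Hist1h2bg, Hist3h2a, Hist1h2bm, Hist1h3c/Hist1h2bb and the Hist2h2bb promoter did.

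The lists differed over the whole genome. The WT list held 25775 peaks and the Tet2 KO list 3836, a ratio of 6.72. Depth is seen in the lists only through the background solved from each peak: its most frequent value was 0.649 fragments for the WT list, and the 1.38 of the Tet2 KO list was 2.13 times as high. Both lists skip peak numbers, so each is a part of the peaks that were called, and how that part was taken is not given in the sources used here. Of 7 myoblast markers, 4 had a WT peak (Myod1, Des, Cdh15 and Pax7) and 3 a Tet2 KO peak (these without Pax7). Myf5, Itga7 and Msc had a peak in neither list. The promoter peak of Myod1 held 39 fragments in WT and 21 in Tet2 KO. Of 7 markers of cells that the sort should remove, Pecam1, Cd3e and Cdh5 had a WT peak and 0 had a Tet2 KO peak, whereas Ptprc, Itgam, Ly6a and Pdgfra had a peak in neither list. Over all protein-coding genes 43.6% had a WT peak and 11.6% a Tet2 KO peak (in the gene and the 1000 bp before it), which is the background for both marker counts. The part of depth, of the skipped numbers and of other cells in the results that follow was not tested.

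In the WT list 31 peaks lay between 1000 bp upstream of the start and the end of a histone gene. They fell on 35 of the 67 genes, or 52.2% (95% Wilson interval 40.5 to 63.7%), beside 43.6% of all protein-coding genes. In the Tet2 KO list 3 peaks fell on 6 histone genes, or 8.96% (4.17 to 18.2%), beside 11.6% of all protein-coding genes. The WT list thus had 10.3 times as many peaks at histone genes as the Tet2 KO list, beside 6.72 times for the whole lists. These intervals cover counting error only, and neighbouring genes that share a peak are not independent.

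Histone genes are short, with a median length of 530 bp beside 15420 bp for all protein-coding genes, so the promoter window (1000 bp upstream to 100 bp downstream of the start), which does not grow with gene length, was used as well. A WT promoter peak was listed for 34 histone genes, or 50.7% (39.1 to 62.3%), whereas 26.7% of all protein-coding genes had one. A Tet2 KO promoter peak was listed for 6, or 8.96%, beside 6.97% of all protein-coding genes. By this window the WT share of histone genes lay above that of all genes, and the Tet2 KO share near it.

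All 3 Tet2 KO peaks at histone genes shared at least 1 bp with a WT peak, beside 97.9% of the Tet2 KO peaks at all genes and 98.7% of those at all promoters. In the other direction, 3 of the 31 WT peaks (9.68%, 3.35 to 24.9%) overlapped a Tet2 KO peak, beside 15.6% of WT peaks at all genes. At promoters this was 3 of 27 WT peaks (11.1%, 3.85 to 28.1%), beside 24.5% of WT peaks at all promoters. The gene-wide background lay within the interval of the histone share, and so did the promoter background.

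**Figure D1:**
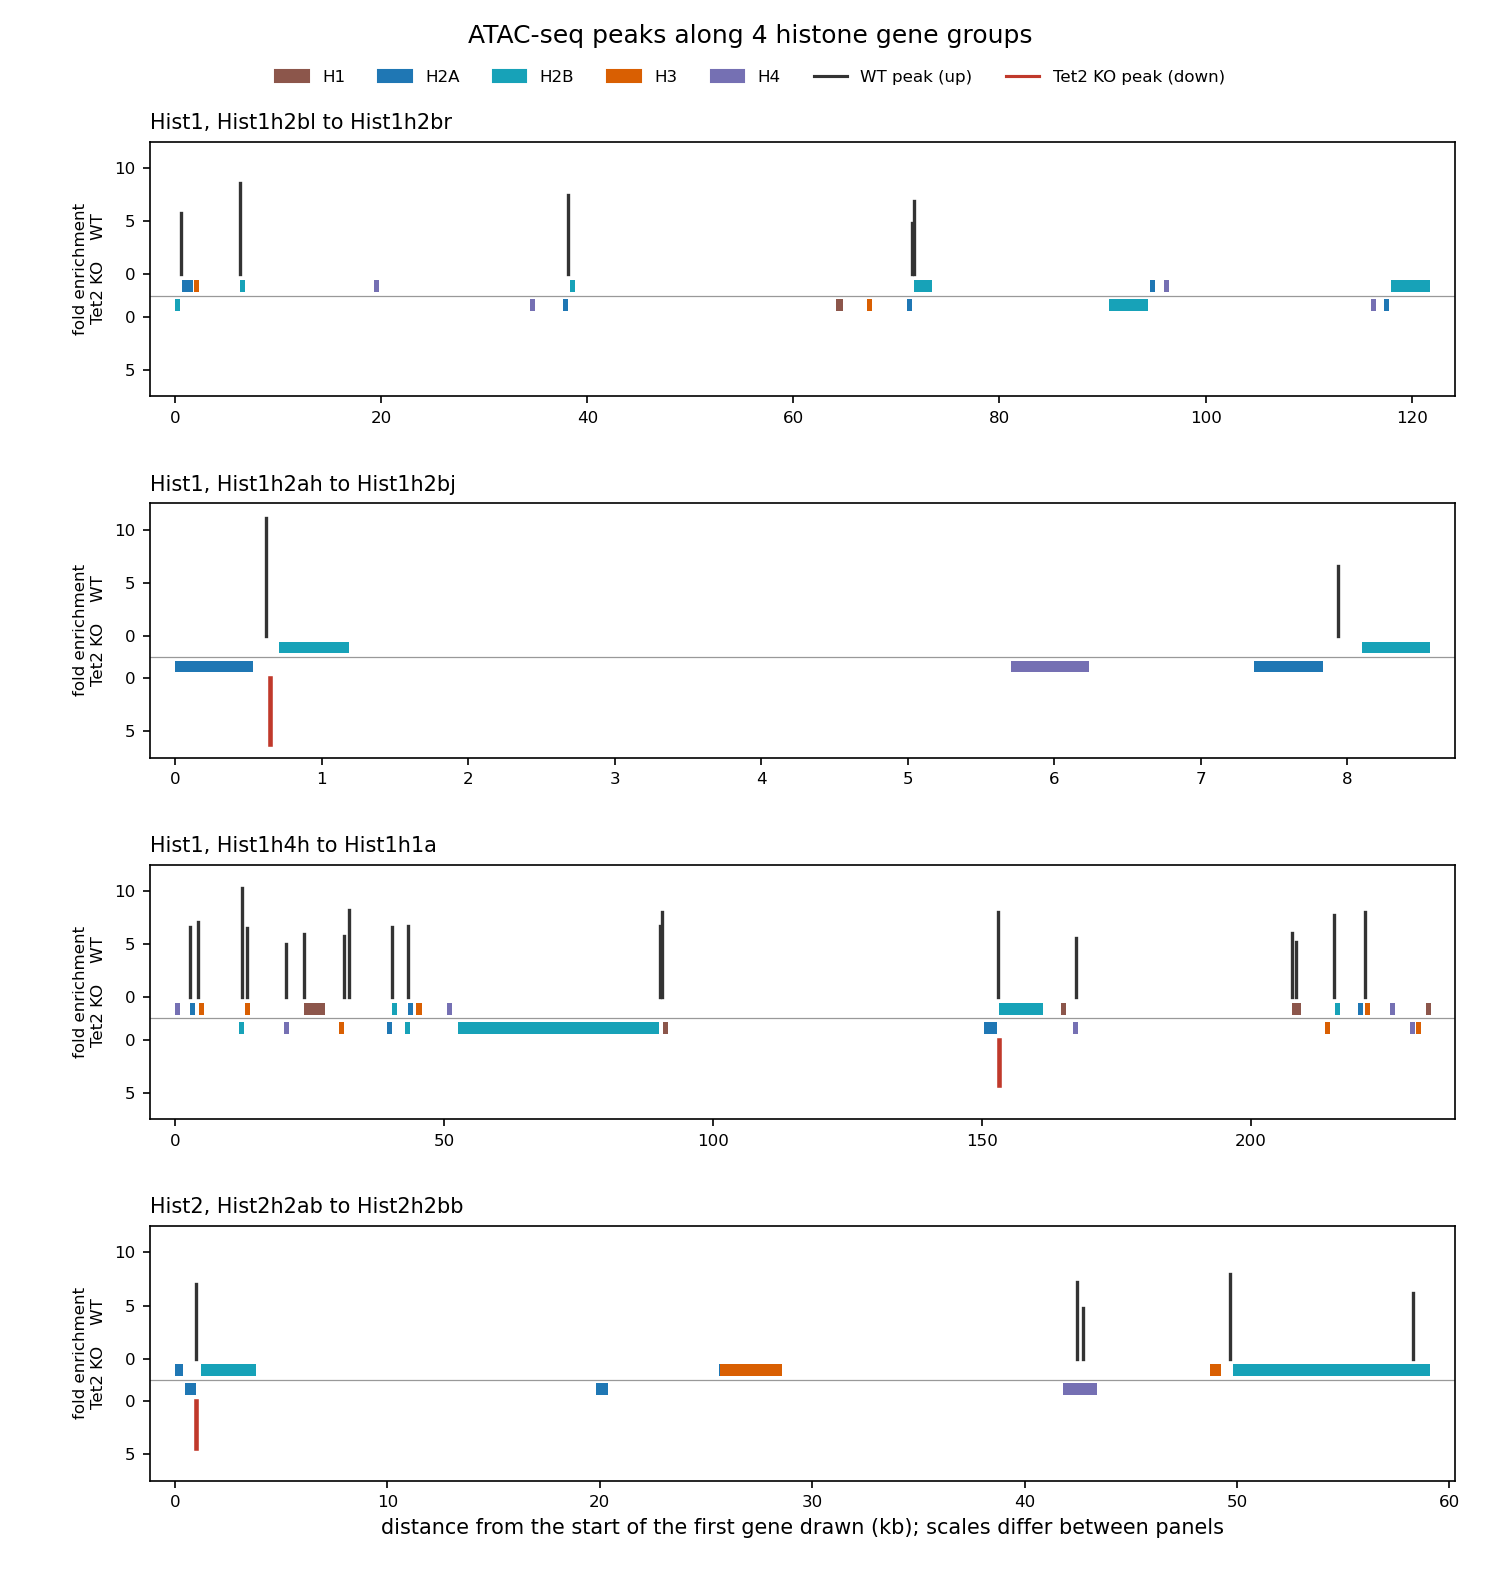
Peaks along the 4 largest groups of histone genes. The horizontal axis is the distance in kb from the start of the first gene; boxes above the grey line are genes on the plus strand and boxes below it genes on the minus strand (Hist2h2aa1 is hidden under Hist2h3c1), coloured by class. Dark lines rise by the fold enrichment of each WT peak and red lines descend by that of each Tet2 KO peak: 30 WT peaks are drawn and 3 Tet2 KO peaks, each of which faces a WT peak.

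The Hist1 genes formed 5 groups on chromosome 13 separated by more than 100 kb. Their counts stand beside 43.6% of all protein-coding genes with a WT peak and 11.6% with a Tet2 KO peak. By the promoter window these shares were 26.7% and 6.97%. The first, from Hist1h2bl to Hist1h2br, spanned 122 kb and held 18 genes, of which 7 had a WT peak and 0 a Tet2 KO peak. It includes 6 genes of an inverted repeat, described below, which had no WT peak. Of its other 12 genes 5 had none. The second, from Hist1h2ah to Hist1h2bj, spanned 8.56 kb, began 198 kb further on and held 5 genes, of which 4 had a WT peak and 2 a Tet2 KO peak. The third, from Hist1h4h to Hist1h1a, spanned 233 kb and held 29 genes, of which 19 had one of its 18 WT peaks and 2 had a Tet2 KO peak. Histone genes with a WT peak were therefore spread along the third group up to Hist1h3b, and the 4 genes after it, Hist1h4b, Hist1h4a, Hist1h3a and Hist1h1a, had none.

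The remaining Hist1 genes stood apart. Hist1h2ba and Hist1h2aa, which encode testis forms of H2B and H2A, formed a head-to-head pair with a peak in neither list, and Hist1h1t, the testis H1 gene within the third group, had none either. Hist1h2al, alone at chr13:51298057-51298434, also had no peak.

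In Hist2 on chromosome 3, 9 genes spanned 59.1 kb from Hist2h2ab to Hist2h2bb and 4 of them had a WT peak. The share of all protein-coding genes was 43.6%. Hist2h2ac and Hist2h2be shared the peak described above. Hist2h2bb had a WT peak 140 bp upstream of its start with a fold enrichment of 7.96 and a second one 8501 bp into its annotated 9281 bp with a fold enrichment of 6.21. Hist2h4 had WT peaks 668 and 915 bp downstream of its start with fold enrichments of 4.72 and 7.26 and no promoter peak. Hist2h2ab, Hist2h2aa1, Hist2h2aa2, Hist2h3c1 and Hist2h3b had no peak in either list. The promoters of Hist2h2aa1, Hist2h2aa2 and Hist2h3c1 are mostly repeated sequence, as described below.

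In Hist3 on chromosome 11, Hist3h2a had a WT peak at chr11:58767999-58768171 with a fold enrichment of 9.0 and 18 fragments, and its neighbour Hist3h2ba had none. That peak's summit lay 103 bp upstream of Hist3h2a and 70 bp from the start of the pseudogene Hist3h2bb-ps. Hist4h4, the only Hist4 gene, had no peak in either list.

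By class, H2B genes had a WT peak in 14 of 18, H2A genes in 11 of 19, H3 genes in 5 of 11, H1 genes in 2 of 6 and H4 genes in 3 of 13. Over all protein-coding genes 43.6% had one, in windows that grow with gene length. By the promoter window it was 14 H2B, 11 H2A, 5 H3, 2 H1 and 2 H4 genes, beside 26.7% of all protein-coding genes. H2A and H2B, which pair as dimers in the nucleosome, each had a Tet2 KO peak at 3 genes, at the 3 promoters that they share. H3, H4 and H1 genes, 30 in all, had 0 Tet2 KO peaks. Over all protein-coding genes 11.6% had one, or 6.97% by the promoter window. The 32 genes without a WT peak were 4 H1, 8 H2A, 4 H2B, 6 H3 and 10 H4 genes. Of the H4 genes, 2 had a WT promoter peak, Hist1h4f and Hist1h4c. Of the H1 genes, which encode linker histones, Hist1h1c and Hist1h1d had a WT promoter peak, whereas Hist1h1a, Hist1h1b, Hist1h1e and Hist1h1t had none.

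**Figure D2:**
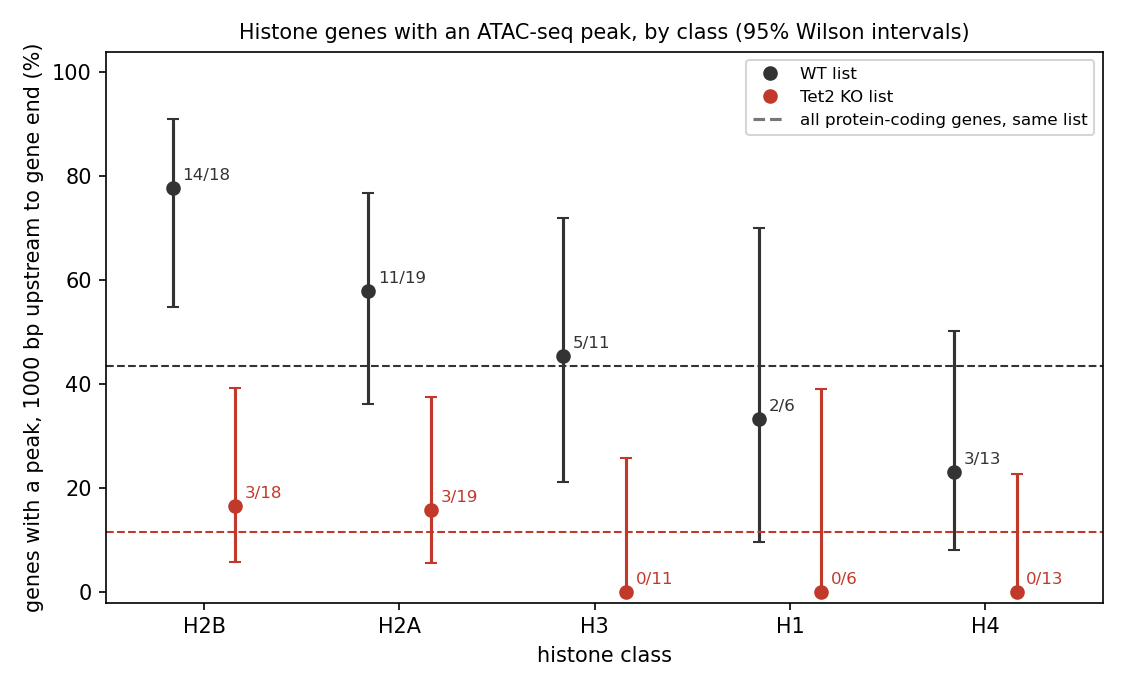
Share of the genes of each histone class (horizontal axis) with a peak from 1000 bp upstream to the gene end (vertical axis, percent) in the WT list (dark) and the Tet2 KO list (red). Bars are 95% Wilson intervals and dashed lines the shares of all protein-coding genes, 43.6% in WT and 11.6% in Tet2 KO. These windows grow with gene length, and by the promoter window the shares of all genes are 26.7% and 6.97%. In WT the points run from 14 of 18 H2B genes to 3 of 13 H4 genes, and in Tet2 KO they are above 0 at H2B and H2A alone.

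Many H2A and H2B genes stood head to head. There were 13 pairs of members whose starts faced away from each other within 1000 bp, 12 of them an H2A with an H2B gene and 1 an H2B with an H3 gene, Hist1h2bh/Hist1h3f. Their starts lay 168 to 693 bp apart (median 241 bp). Of the 26 genes in pairs, 20 had a WT peak and 6 a Tet2 KO peak. Of the 41 genes in no pair, 15 had a WT peak and 0 a Tet2 KO peak. Over all protein-coding genes the shares were 43.6% and 11.6%, in windows that grow with gene length. By the promoter window 20 of the 26 and 14 of the 41 genes had a WT peak, beside 26.7% of all protein-coding genes. A Tet2 KO promoter peak was listed for 6 of the 26 and 0 of the 41, beside 6.97%. Both genes of a pair were counted for the same peak, so the paired genes stand for 10 pairs with a WT peak and 3 with a Tet2 KO peak. Class differs with pairing, since all H1 and H4 genes and 10 of 11 H3 genes were in no pair. Among H2B genes, 10 of 13 in pairs and 4 of 5 in no pair had a WT peak. Among H2A genes these were 9 of 12 and 2 of 7.

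Within the pairs, the summit of the strongest WT peak lay between the starts in 9 of the 10. The exception was Hist1h2an/Hist1h2bp, whose stronger peak had its summit 39 bp inside Hist1h2bp. The 3 pairs with no WT peak were Hist1h2bq/Hist1h2ao, Hist1h2ap/Hist1h2br and the testis pair Hist1h2ba/Hist1h2aa.

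At Hist1h2ah/Hist1h2bk, whose starts lie 178 bp apart, the WT peak held 29 fragments at its summit over a local background of 1.70, a fold enrichment of 11.1. It was the strongest histone peak in the WT list. The Tet2 KO peak held 14 fragments over 1.40, a fold enrichment of 6.25, and was also the strongest of its list's histone peaks. The summits lay 22 bp apart, between the starts in both lists, and all 168 bp of the Tet2 KO peak lay within the 301 bp of the WT peak.

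At Hist1h2ac/Hist1h2bc the WT peak held 21 fragments over 1.74, a fold enrichment of 8.03, and the Tet2 KO peak 10 fragments over 1.56, a fold enrichment of 4.30. The shared stretch was 106 bp long, but the summits lay 188 bp apart. The WT summit was 59 bp upstream of Hist1h2ac and the Tet2 KO summit 4 bp upstream of Hist1h2bc, at opposite ends of the 251 bp between the starts.

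At Hist2h2ac/Hist2h2be the WT peak held 15 fragments over 1.28, a fold enrichment of 7.02, and the Tet2 KO peak 11 fragments over 1.73, a fold enrichment of 4.40. The summits lay 5 bp apart, next to the Hist2h2ac start, and 162 bp were shared. This WT peak was not among the stronger ones: 65.3% of the WT list lay below the peak of Hist3h2a, which had no Tet2 KO peak, and 34.6% below this one.

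Fragments at the summit divided by the genome-wide background of each list were 44.7 in WT and 10.1 in Tet2 KO at Hist1h2ah/Hist1h2bk, a Tet2 KO to WT ratio of 0.227. The ratio was 0.224 at Hist1h2ac/Hist1h2bc and 0.345 at Hist2h2ac/Hist2h2be. Over all 3712 Tet2 KO peaks that overlapped a WT peak the median of this ratio was 0.259 (quartiles 0.220 and 0.308). The first 2 histone sites lay within these quartiles and the third above them. The same ratio of the deposited fold enrichments was 0.563, 0.536 and 0.627, beside a median of 0.528.

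The strongest WT peak without a Tet2 KO peak was that of Hist1h2bh/Hist1h3f, with 21 fragments over 1.14 and a fold enrichment of 10.3. Hist3h2a followed with the 9.0 given above, and then Hist1h2bm with 21 fragments over 1.55 and a fold enrichment of 8.63, its summit 8 bp upstream of its start. The lowest Hist1 genes by their strongest WT peak were Hist1h4f (fold enrichment 5.0), Hist1h4c (5.60), Hist1h2bl and Hist1h2ai, which share 1 peak (5.81), and Hist1h1d (5.99). Those genes had between 12 and 16 fragments at the summit.

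**Figure D3:**
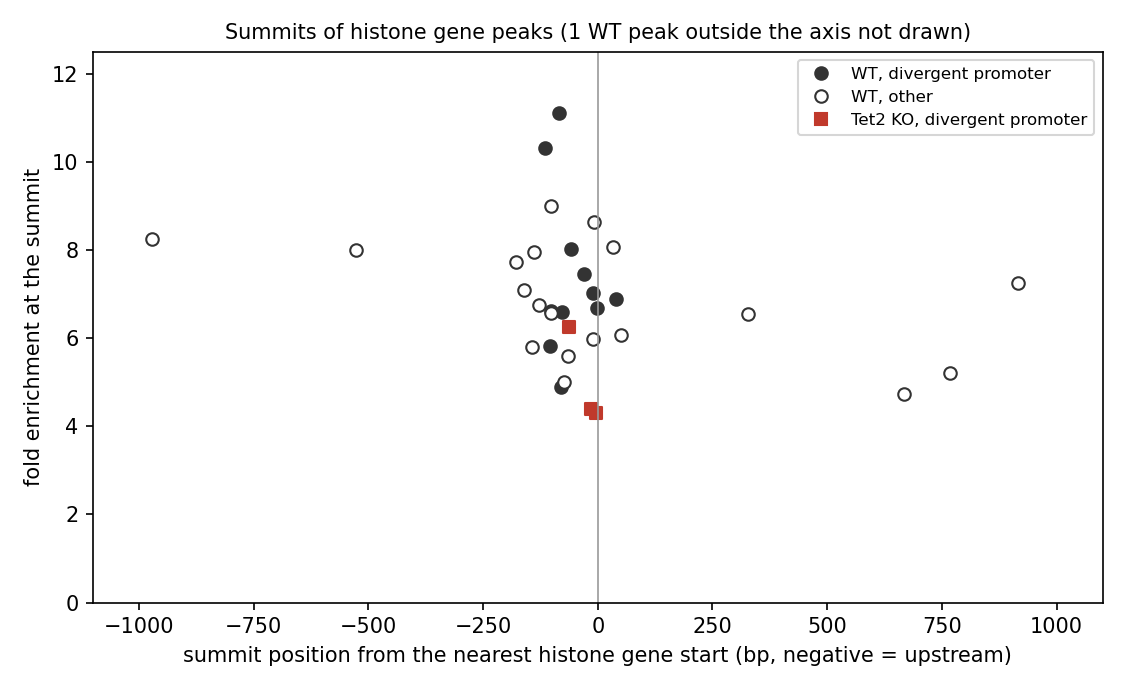
Fold enrichment of each peak at a histone gene (vertical axis) against the position of its summit from the nearest histone gene start in bp (horizontal axis, negative upstream). Filled dark circles are WT peaks at divergent promoters, open circles other WT peaks and red squares Tet2 KO peaks; 24 of 31 WT summits and all 3 Tet2 KO summits lie within 300 bp of a start, and the WT peak 8501 bp inside Hist2h2bb is off the axis.

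Most histone peaks were promoter peaks. The WT summits lay at a median of 73 bp upstream of the nearest histone gene start, with 23 upstream and 8 downstream of it. Of the 31 WT peaks, 11 lay at a divergent promoter, 16 at the promoter window of another gene and 4 elsewhere (the second peak of Hist1h1c at 768 bp, both of Hist2h4 and the second of Hist2h2bb). Some were near a neighbour: a WT peak 527 bp upstream of Hist1h2be ended 7 bp beyond the 3′ end of Hist1h1e, and one 972 bp upstream of Hist1h3e had a fold enrichment of 8.25, above the 5.80 of the peak 143 bp upstream. Hist1h2be is annotated as 37.4 kb long, beside a median of 530 bp for histone genes, and its WT peaks lay at that annotated start.

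The WT peaks of histone promoters were of lower fold enrichment than those of promoters at large, with a median of 6.88 beside 8.27, while the fragments at the summit were equal, with a median of 17 in both. The local background was higher at histone promoters, with a median of 1.52 fragments beside 1.11. Fold enrichment is the ratio of summit to local background, each with 1 added, so the higher background goes with the lower fold. The 31 gene peaks ranged from 10 to 29 fragments and from 4.72 to 11.1 in fold enrichment.

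**Figure D4:**
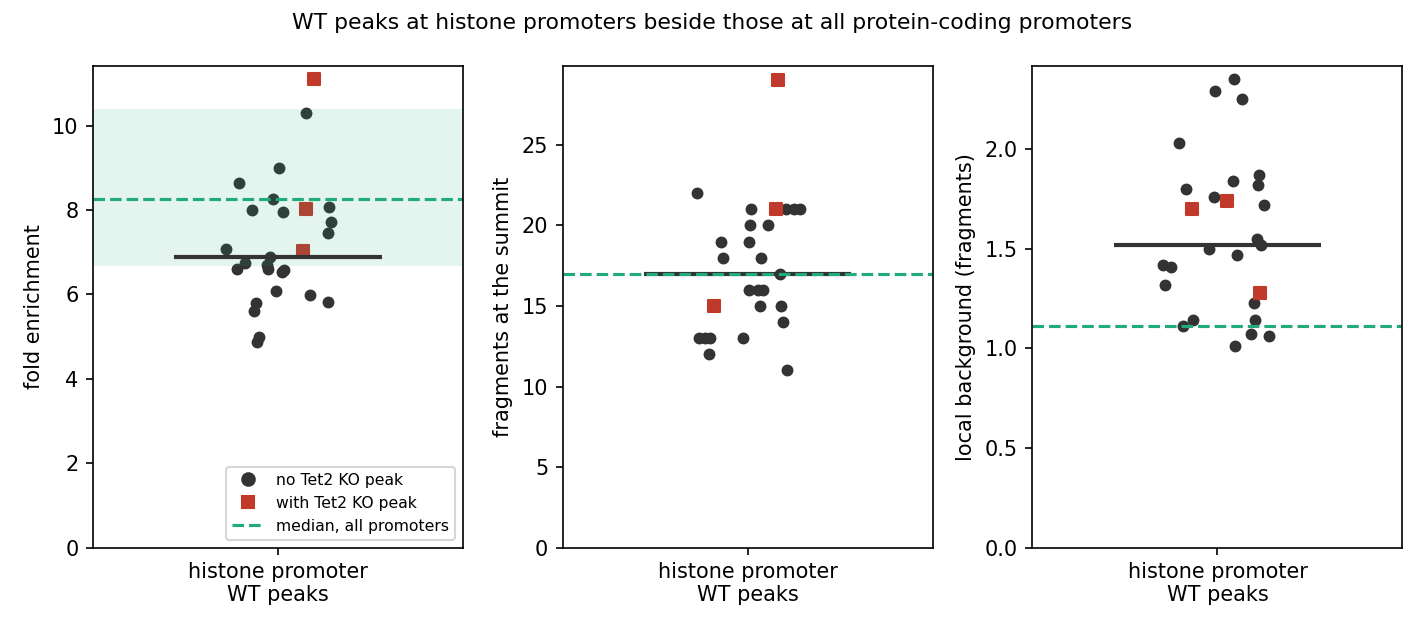
Fold enrichment, fragments at the summit and local background (vertical axes) of the 27 WT peaks at histone promoters. Points are peaks, red squares those with a Tet2 KO peak; the solid line is their median, the dashed line the median of the 5629 WT peaks at all protein-coding promoters and the shaded band in the first panel the quartiles of the latter. Medians are 6.88 and 8.27 for fold enrichment, 17 and 17 for fragments, and 1.52 and 1.11 for background.

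Whether a WT peak had a Tet2 KO peak moved with its fold enrichment over the whole list. When the 16581 WT peaks at genes were divided into 5 groups of about equal size by fold enrichment, 1.70% of the lowest group overlapped a Tet2 KO peak, followed by 3.75%, 8.10%, 18.3% and 46.2% in the highest. Of the 31 histone peaks 20 fell in the lowest 2 groups and 1 in the highest. In the same order, 0 of 9, 1 of 11, 1 of 7, 0 of 3 and 1 of 1 histone peaks overlapped a Tet2 KO peak. The part of fold enrichment in the share of histone peaks with a Tet2 KO peak was not tested.

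Absence from a list is not absence of a peak. The 28 WT histone peaks without a Tet2 KO peak lay in 5 intervals between neighbouring Tet2 KO peaks, 337 to 1902 kb long, and each of the 5 skipped peak numbers, 26 in all. Over the genome 51.4% of 3815 such intervals skipped a number. A Tet2 KO peak that was called at these genes but left out of the list cannot be told apart from one that was not called. Of the 32 histone genes without a WT peak, 18 lay in WT intervals with no skipped number, so that no numbered WT peak was missing there, and 14 in intervals that skipped 8 numbers in all.

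Repeated sequence was a feature of some of the genes without a WT peak. The reads had been shortened to 36 bases and filtered on mapping quality, so the share of 36-base words that occur more than once in mm9 was computed for each gene window. It was over 50% for 6 genes, Hist1h2bq, Hist1h2ao, Hist1h4m, Hist1h4n, Hist1h2ap and Hist1h2br, which are the arms of an inverted repeat at the end of the first Hist1 group. Their shares ran from 97.4 to 100%, and 0 of the 6 had a WT peak. Of the other 61 genes 35 had one (57.4%).

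The promoters of these genes, from 250 bases before to 50 after the start, were identical between Hist1h2bq and Hist1h2br at 300 of 300 bases and between Hist1h2ao and Hist1h2ap at 300 of 300, and Hist1h4m and Hist1h4n shared 299 of 300. In Hist2, Hist2h2aa1 and Hist2h2aa2 shared 299 of 300 bases, and neither they nor Hist2h3c1, which starts 16 bp from Hist2h2aa1, had a peak. A promoter with over 50% repeated words was found for 9 of the 67 genes (13.4%) beside 6.69% of all protein-coding genes, and 0 of these 9 had a WT peak. For these 9 genes a lack of uniquely placed reads and a lack of open chromatin cannot be told apart.

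**Figure D5:**
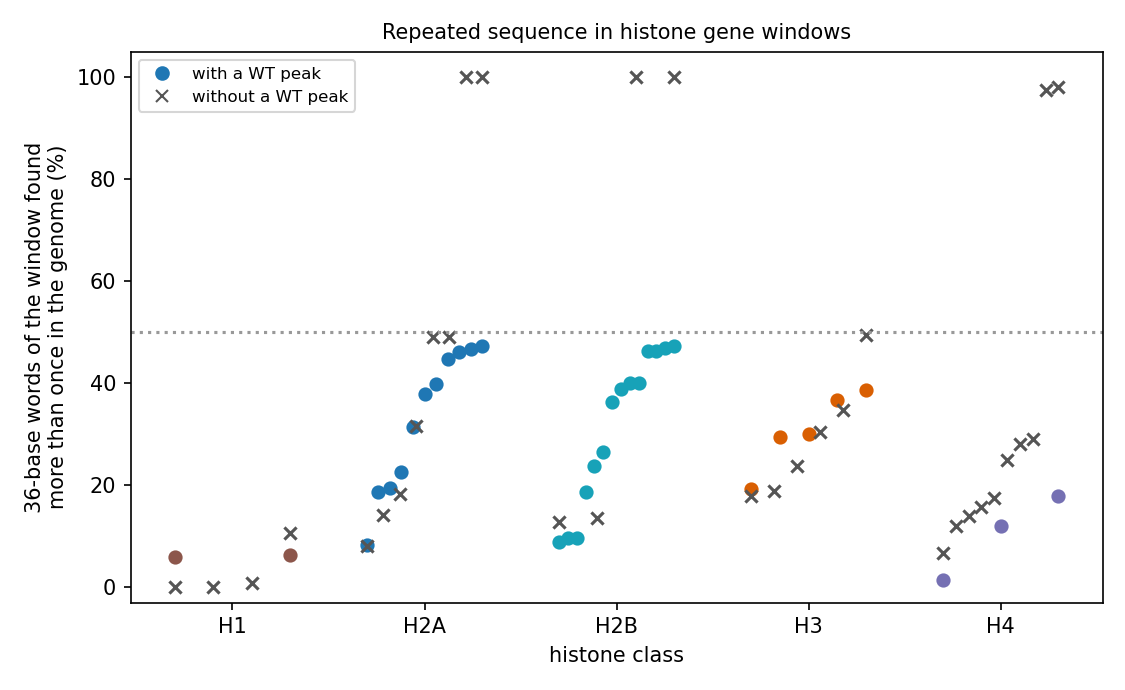
Share of the 36-base words of each gene window that occur more than once in mm9 (vertical axis, percent), by histone class (horizontal axis). Filled circles are genes with a WT peak and crosses genes without one, and the dotted line marks 50%. All 6 genes above the line are crosses, with shares of 97.4 to 100%.

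The searched letters were more frequent at histone promoters than at all promoters. TATAAA stood on either strand of 38 of 67 histone promoters (56.7%) beside 13.4% of all, and CCAAT of 57 (85.1%) beside 37.9%. The octamer ATTTGCAT stood in 15 (22.4%) beside 1.72%, 7 of H2A and 8 of H2B genes. AAACACA stood in 10 (14.9%) beside 6.43%, among them 5 of the 6 H1 promoters. The windows of divergent pairs overlap, so the members of a pair often hold the same copy of a motif.

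Motifs and peaks were set side by side as a description. The share of all protein-coding genes with a WT peak was 43.6%, or 26.7% by the promoter window. CCAAT stood in 53 of 54 H1, H2A, H2B and H3 promoters but in 4 of 13 H4 promoters, and H4 was also the class with the smallest share of WT peaks. Of the 57 genes with CCAAT 33 had a WT peak, and of the 10 without it 2 had one. Among those 10 were 9 H4 genes, of which 1 had a WT peak, with Hist1h4m and Hist1h4n of the inverted repeat among them. Outside H4, 31 of the 53 genes with CCAAT had a WT peak (58.5%), beside 32 of all 54 (59.3%). Of the 38 genes with TATAAA 16 had a WT peak (42.1%), and of the 29 without it 19 had one (65.5%).

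Among the 15 genes with the octamer 12 had a WT peak, and among the 52 without it 23 had one. All 6 genes with a Tet2 KO peak, at 3 promoters, held the octamer in this promoter window, though not always within the peak. The same 6 genes also held TATAAA and CCAAT in it. As a background, 43.6% of all protein-coding genes had a WT peak and 11.6% a Tet2 KO peak. By the 1000 bp upstream to 100 bp downstream window these shares were 26.7% and 6.97%. A Tet2 KO peak was listed for 6 of 38 genes with TATAAA, 6 of 57 with CCAAT and 6 of 15 with the octamer. Without each motif it was 0 of 29, 0 of 10 and 0 of 52. The octamer genes outside pairs, Hist3h2a, Hist1h2bm, Hist1h2bb, Hist1h2ab and Hist2h2bb, had no Tet2 KO peak. By pair, 3 of the 5 divergent pairs with the octamer had a Tet2 KO peak and 0 of the 8 pairs without it. Those 8 include Hist1h2bq/Hist1h2ao and Hist1h2ap/Hist1h2br, whose genes are among the 9 with repeated promoters. Of the other pairs with the octamer, Hist1h2ae/Hist1h2bg had a WT peak alone (fold enrichment 6.60, 19 fragments) and the testis pair Hist1h2ba/Hist1h2aa had none. The octamer lay 23 bp before the start of Hist1h2bk, 48 bp before that of Hist1h2bg, 41 bp before that of Hist2h2be and 110 bp before that of Hist1h2bc.

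The median GC content of the promoter was 44.0% for the 35 genes with a WT peak and 47.2% for the 32 without, and 46.0% for all histone genes beside 55.0% for all protein-coding genes. The median number of CpG sites was 11 in both histone and all promoters.

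The label was checked against the 3′ ends, since a stem-loop marks replication-dependent histone genes. A stem-loop (GG, a stem closed by its complement and a loop of mostly T) was found within 150 bases after the coding end of 62 of the 67 genes, 25 to 62 bases after it (median 34.5). The stem is in capitals and the loop in lower case, and the 3 most frequent of the 7 forms are shown, with the number of genes that hold each given after them.
Form A: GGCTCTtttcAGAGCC
Form B: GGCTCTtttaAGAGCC
Form C: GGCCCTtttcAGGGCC

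Form A stood in 39 genes, form B in 9 and form C in 8. No stem-loop was found in this stretch of Hist1h2an, Hist1h4a, Hist1h2al, Hist2h2be and Hist2h2bb, which says only that these letters were not within it. Of the 62 genes with a stem-loop, 32 had a WT peak and 5 a Tet2 KO peak. Of the 5 genes without one, 3 had a WT peak, and of these Hist2h2be alone had a Tet2 KO peak. The shares of all protein-coding genes were 43.6% in WT and 11.6% in Tet2 KO.

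Other histone variants, whose symbols do not begin with Hist1h, Hist2h, Hist3h or Hist4h, were listed separately. Of 10 found in the annotation, 9 had a WT peak and 3 a Tet2 KO peak, beside 43.6% and 11.6% of all protein-coding genes. The 3 were H2afx, which marks DNA breaks when phosphorylated, H2afz, which flanks active starts, and H2afv, its close relative. At H2afz the WT promoter peak held 29 fragments (fold enrichment 11.2) and the Tet2 KO peak 13 (5.28). At H2afv they held 31 (14.0) and 12 (5.45), and at H2afx 23 (10.3) and 13 (4.69). Of 5 variants with a WT promoter peak, the other two were H2afj (6.44) and Cenpa (11.2), the centromeric H3.

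Genes that act on histone transcripts were also listed. Of 12 genes for transcription and 3′ processing of histone mRNA 11 had a WT peak and 6 a Tet2 KO peak, beside 43.6% and 11.6% of all protein-coding genes. Both lists held a promoter peak for Npat, the coactivator of histone genes, with 27 fragments in WT and 10 in Tet2 KO, for Casp8ap2, its partner in the histone locus body, with 24 and 13, and for Hinfp, the factor of H4 promoters, with 22 and 11. Lsm10, a subunit of the particle that cleaves histone pre-mRNA, had 14 and 13, and Yy1 had 18 and 12. Slbp, which binds the stem-loop, had a WT promoter peak of 28 fragments (fold enrichment 10.8) and no Tet2 KO peak, and Pou2f1, an octamer-binding factor, had one of 16 fragments (7.80) and no Tet2 KO peak.

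Of 8 histone chaperones 7 had a WT promoter peak, beside 26.7% of all protein-coding genes, and Asf1b alone had a Tet2 KO one, beside 6.97%, with 35 fragments in WT and 21 in Tet2 KO. These lists are small and were not tested against each other.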

How the data were processed

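The study has 2 ATAC-seq samples per genotype, and 1 WT and 1 Tet2 KO peak list were analysed. The authors shortened reads to 36 bp, used Bowtie2 for alignment to mm9, filtered on mapping quality, removed duplicates and called peaks with MACS2, and no versions are given in the sources used here. The lists were assigned to genotypes by the submitters' WT and KO naming and could be tied to no replicate. The deposited fold is a ratio of summit to local background, each with 1 added, and the authors deposited −log10 p-values and −log10 q-values at the summit and the summit's distance from the peak start.

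Fragments and background at each summit were solved from fold and −log10 p with the Poisson model that MACS2 uses, and 100% of peaks were recovered. For 55 WT and 1 Tet2 KO peaks a pair of solutions existed. Genes came from GENCODE M1, and sequence from NCBIM37 (mm9). A peak belonged to a gene if it shared 1 bp with the window from 1000 bp upstream to the gene end. Total read numbers are not known. Shares have 95% Wilson intervals, for counting error only. Nothing was tested between genotypes, which have 1 list each without replicates. Named were all Hist2, Hist3 and Hist4 genes, in Hist1 the genes with a Tet2 KO peak, the 5 highest and 5 lowest by fold of their strongest WT peak and the ends of each group, and genes of fixed lists; others were named after their values were seen. The members and lists were chosen with earlier results of these data known. The scripts were tested on simulated data and used Python 3.11.15, numpy, pandas, scipy, pysam and matplotlib. Alternatives were the q and fold thresholds, the window, the overlap, merging of peaks, and repeated genes left out.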

Additional observations from a re-analysis of the deposited data

How the results depend on the processing

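Each of the 8 values on peaks and genes was recomputed under 13 alternatives, which gave 102 values: 88 differed from the reported one by less than 1.5 times, or less than its interval, and 14 moved further. The shares of all protein-coding genes were not recomputed under these alternatives, so the comparisons of histone genes with all genes hold for the reported settings only. With only peaks at a −log10 q of 5 or more, the number of Tet2 KO peaks at histone genes was 1 and of genes with one 2, the ratio of WT to Tet2 KO peaks was 30, and 3.33% of WT peaks overlapped a Tet2 KO peak. With a −log10 q of 10 or more, 14 WT peaks at 20 genes and 0 Tet2 KO peaks at 0 genes were left, the overlap was 0%, and no ratio or share of Tet2 KO peaks could be computed. With a fold enrichment of at least 5, 1 Tet2 KO peak at 2 genes was left and the ratio was 29. By construction these limits remove weaker peaks, and those of Hist1h2ac/Hist1h2bc and Hist2h2ac/Hist2h2be were lost from the Tet2 KO list under each. From gene start to gene end, without the upstream part, 23 genes had a WT peak and 3 a Tet2 KO peak. No paired analysis was possible because the WT list and the Tet2 KO list carry no replicate number. Depth limits the statements through the 10 to 29 fragments at the summit of a WT histone peak and the 10 to 14 of a Tet2 KO one.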

Other observations

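Within the spans of the histone gene groups 5 WT peaks and 0 Tet2 KO peaks lay at no histone gene. The peak at chr13:21871240-21871396 (fold enrichment 5.16) lay 1157 bp from the start of Hist1h1b, past its 3′ end, and the one at chr3:96042013-96042226 (6.31) lay 1005 bp from the start of the pseudogene Hist2h3c2. The others, at chr13:23751987-23752103 (6.40), chr13:23793186-23793285 (5.68) and chr3:96030802-96030908 (8.15), lay 2872 to 5820 bp from the nearest annotated start.

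Of the 32 histone genes without a WT peak, 9 had one within 1000 bp of their window. The nearest WT peak of these 32 genes lay 7 to 110515 bp from the window, with a median of 5548 bp.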
